A study of Mus musculus with 8 samples.

Results

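All-trans retinoic acid (RA) was given to both lines of the study, and the comparison described here set the 4 RA arrays against the 4 untreated arrays with the line as a covariate, in order to find genes that moved the same way in both lines. N18TG2 is a mouse neuroblastoma line, and the 2/4 clone is a clone of it that expresses choline acetyltransferase (ChAT) and was kept in 200 µg/mL G418, so it stands for a single clone. Of 26262 genes tested, 504 passed the test, and these 504 genes are its members. All 504 had the same sign in N18TG2 and in the clone, and in 503 of them every RA array lay beyond every untreated array within each line. These counts describe the same arrays that gave the calls and are not a second test. A fit with line as a covariate favours genes that move alike in both lines. Over all genes tested, 59.7% had the same sign and 17.1% lay apart in both lines in the same direction.

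The 8 one-colour arrays formed 4 groups of 2: each line without RA and each line with it. The dose of RA was 1 µM, and the RA medium held 1% serum where growth medium held 10%. The labels used here give neither the medium of the untreated cells nor the duration of RA, so a change of serum and RA cannot be told apart. RA was dissolved in DMSO, and whether untreated cells received it is not stated. Separate cultures behind the 2 arrays of a group are not stated in the labels, so the p-values may measure only technical spread. The extraction text of the labels names hippocampus. All 12 sympathetic neuroblast and neuronal markers, among them Phox2a, Hand2 and Th, were above background on all 8 arrays, whereas 7 of 18 markers of hippocampal neurons, among them Prox1, Neurod2 and Neurod6, were above background on none.

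RA is made from retinol by way of retinal. It enters the nucleus and binds retinoic acid receptors, which sit on DNA with retinoid X receptors and switch on genes next to their binding sites. Among the genes best known to respond are the receptor Rarb, the Cyp26 enzymes that break RA down, and the 3' genes of the Hox clusters. In neuroblastoma cells RA is widely used to slow growth and induce neuronal features.

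Receptor sites of this kind are direct repeats of a hexamer, here AGGTCA in its classical form, or its variants AGTTCA with GGTTCA and also GGGTCA, repeated in the same orientation with 1, 2 or 5 bases between them. They were searched on both strands of RefSeq promoters (GRCm38.p6, 250 bases before to 50 after each start site). The 250 bases before the start of 4 genes are shown in the 5' to 3' direction of each gene, with the repeat in capitals. They are reference sequence, not read from these lines, and examples picked by hand. They therefore cannot show how promoter sequence and response line up. Rarb and Cyp26a1 carry repeats with a spacer of 5 and did not pass the test over both lines. Cyp26b1 has the largest difference among the members and no repeat in this window. Bco1 is a member that was lower with RA and carries a repeat with a spacer of 1; it was picked for this after its values were seen.
Rarb (chr14:16575477-16575726, minus strand): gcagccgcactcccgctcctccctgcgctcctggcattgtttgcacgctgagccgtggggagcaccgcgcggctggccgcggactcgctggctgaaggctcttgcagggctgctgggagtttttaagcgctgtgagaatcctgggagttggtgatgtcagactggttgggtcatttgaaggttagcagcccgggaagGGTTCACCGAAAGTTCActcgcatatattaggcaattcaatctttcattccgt
Cyp26a1 (chr19:37697558-37697807, plus strand): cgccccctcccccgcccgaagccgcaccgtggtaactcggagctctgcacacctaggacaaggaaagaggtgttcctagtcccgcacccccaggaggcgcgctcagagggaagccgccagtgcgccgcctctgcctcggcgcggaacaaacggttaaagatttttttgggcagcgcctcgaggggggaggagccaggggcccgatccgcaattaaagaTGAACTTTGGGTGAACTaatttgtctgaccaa
Cyp26b1 (chr6:84593811-84594060, minus strand): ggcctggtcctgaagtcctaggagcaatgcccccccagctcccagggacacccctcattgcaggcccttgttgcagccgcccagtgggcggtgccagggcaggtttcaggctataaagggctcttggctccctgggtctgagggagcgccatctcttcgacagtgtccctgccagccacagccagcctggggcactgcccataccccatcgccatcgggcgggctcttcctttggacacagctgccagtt
Bco1 (chr8:117095615-117095864, plus strand): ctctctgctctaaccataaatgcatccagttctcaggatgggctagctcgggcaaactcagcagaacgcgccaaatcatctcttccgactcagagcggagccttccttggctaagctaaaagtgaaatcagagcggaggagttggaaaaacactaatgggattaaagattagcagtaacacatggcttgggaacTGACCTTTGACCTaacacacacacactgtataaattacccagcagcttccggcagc

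Of the 504 members, 276 had a promoter in the RefSeq table. A repeat was found for 0 of 101 members higher with RA and for 2 of 175 members lower with RA, Bco1 and Igsf23. Counted by gene in the same way, 55 of 12060 tested genes with a promoter, or 0.456%, held a repeat. Counted by promoter over the whole table, it was 193 of 32851, or 0.588%. These counts are too few to compare, and sites outside this window were not searched.

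Of the 26262 genes tested, 1.92% passed limma's test at an adjusted p under 0.05 (Benjamini-Hochberg). They divided into 265 higher with RA, which is 1.01%, and 239 lower, which is 0.91%. Members changed by a median of 1.70 on the log2 scale, and 502 of the 504 by at least 2-fold, 154 by at least 4-fold and 31 by at least 8-fold. The ratio of the smaller to the larger log2 difference of the 2 lines had a median of 0.74 over members, against 0.41 over all genes tested. The lines differed by less than 1 log2 unit in 388 members, or 77.0%, a share close to the 74.8% of all genes tested. RA arrays lay beyond untreated arrays in both lines, in the same direction, in 17.1% of all genes tested, so non-overlap alone was common. Of all 26262 genes, 59.7% had the same sign in both lines.

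**Figure D1:**
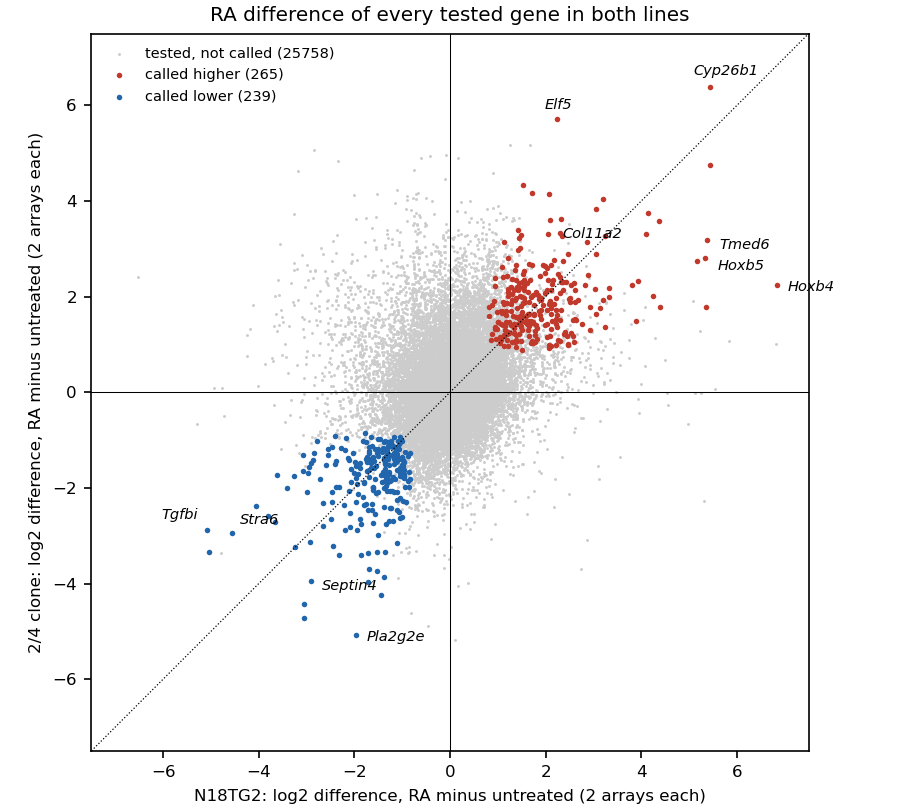
Log2 difference between RA and untreated arrays in N18TG2 (x axis) and in the 2/4 clone (y axis), 1 point per tested gene, with the dotted line marking equal differences. The 265 genes called higher (red) and 239 called lower (blue) all lie in the quadrants of shared sign, while many uncalled genes (grey) lie in the other quadrants.

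Each line was also examined separately, within 1 fit of the 4 group means. In N18TG2, 1.12% of genes tested were called, and in the clone 4.63%. With limma fitted on the 4 arrays of each line alone, so that each line has its own spread, 218 genes were called in N18TG2 (3743 at an unadjusted p under 0.05), 0 in the clone (5362 at an unadjusted p under 0.05) and 0 in both, so the counts that follow rest on the shared spread. Within a line all RA arrays lay in 1 row of the slide and all untreated arrays in the other row, reversed in the clone, so RA and slide row cannot be told apart in any value given for a single line. The lines share the estimate of spread but no arrays, and 85 genes were called in both, 71 of them with the same sign. All 71 were members. Of the 504 members, 117 were called in N18TG2, 269 in the clone and 189 in neither, so many members passed only with all 8 arrays in the fit. The difference between the lines' RA responses was called for 0.206% of genes tested, and for 1 member, Hoxb4.

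The number of members rested on single arrays. Without untreated N18TG2 array 1 or 2, 20 and 12 genes were called. Without untreated clone array 1 or 2 there were 38 and 20. Without RA array 1 or 2 of N18TG2 there were 117 and 326. Without RA array 1 or 2 of the clone, 340 and 349 were called. RA array 1 of the clone stood apart from the rest, with 71.8% of probes above background against 47.8% to 62.8% on the other arrays, and a spike-in detection limit outside the scanner software's range. The split also moved with background handling and scaling: 52.6% of calls were higher with RA as reported, 28.2% of 174 calls after normexp background correction and 38.4% of 229 after quantile normalization.

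**Figure D2:**
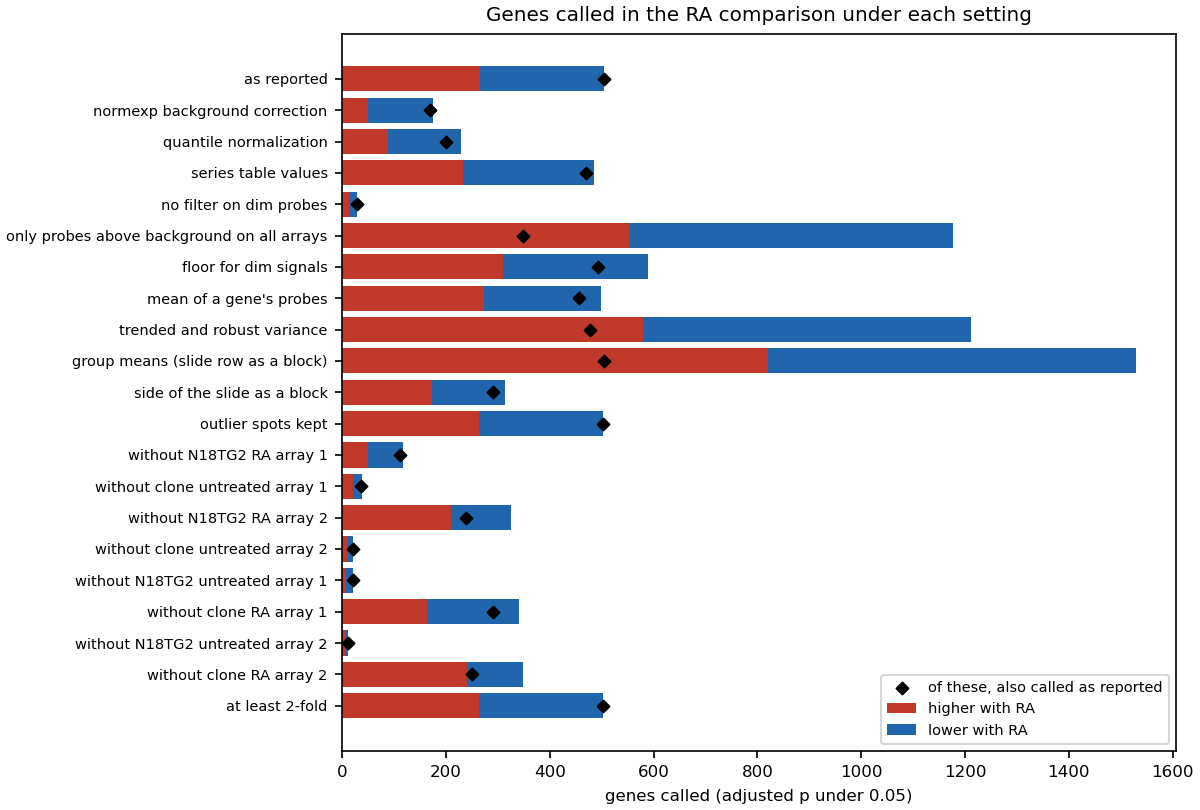
Number of genes called in the RA comparison (x axis) under each processing setting (y axis), divided into genes higher (red) and lower (blue) with RA, with diamonds marking how many are among the 504 reported. Counts run from 12 without an untreated N18TG2 array to 1530 with the slide row as a block.

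Members higher and lower with RA differed in how bright and how well annotated they were. A level here is the log2 intensity minus the 75th percentile of its array, so 0 is a bright gene and the dimmest signals above background lay between -7.39 and -5.34 on the 8 arrays. The median level was -2.92 for the 265 higher members and 0.04 for the 239 lower members, against -1.04 for all genes tested. Only 138 of the 265 higher members had a current gene symbol, 52.1%, against 214 of 239 lower members, 89.5%, and 57.8% of all genes tested. No untreated array was above background for 32 higher members, and no RA array for 2 lower members. The 32 were among 1003 genes that passed the filter on dim probes through their RA arrays alone, so their being higher follows in part from that filter and their p-values are given only as a description. The larger share of bright probes on clone RA array 1 moves with the first group, and without that array 164 genes were called higher and 176 lower. Its part in the result was not tested.

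Retinoid breakdown and uptake held the largest rise and a marked fall. Cyp26b1, a cytochrome P450 that hydroxylates and so inactivates RA, read 0.93 and 0.23 on the untreated and 5.67 and 6.36 on the RA arrays of N18TG2, and 0.42 and -0.31 against 5.60 and 7.26 in the clone. All 4 RA arrays were far above all 4 untreated arrays, and the RA arrays of the lines read alike. The difference was 5.91 ± 0.43 (SE, n = 4 arrays each), or 60.0-fold, with adjusted p = 0.00306 (limma), the largest log2 difference of any member. It was 43.3-fold in N18TG2 and 83.2-fold in the clone, and stayed called under all 19 alternatives, with adjusted p from 0.000117 to 0.0295.

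Stra6, the membrane receptor that takes up retinol from its carrier in plasma, moved the other way. Its level was -1.02 and -0.90 on the untreated and -6.19 and -4.87 on the RA arrays of N18TG2, and 1.26 and 1.11 against -2.09 and -1.41 in the clone. It was above background on 1 of 2 RA arrays of N18TG2 and on both of the clone. RA arrays were low in both lines and did not overlap the untreated arrays of their own line, although the clone was brighter throughout. The difference was -3.75 ± 0.43 (SE, n = 4 arrays each), 13.5-fold lower, with adjusted p = 0.0123 (limma), and adjusted p ran from 0.00202 to 0.0567 over its 18 alternatives. It was 23.7-fold in N18TG2 and 7.65-fold in the clone. The promoters of both genes lacked the repeats searched.

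Other retinoid genes did not pass the test. Crabp2, the cytosolic carrier that hands RA to its receptors, read 0.17 and 0.34 on the untreated and 2.07 and 1.38 on the RA arrays of N18TG2, and 0.40 and 0.21 against 0.71 and 1.17 in the clone. Its RA arrays lay above the untreated arrays of each line, and the difference of 1.06 ± 0.28 (SE, n = 4 arrays each) had adjusted p = 0.0910 (limma). Rarb, the receptor whose promoter is shown above, read -6.92 and -7.89 on the untreated and -4.02 and -3.29 on the RA arrays of N18TG2, and -7.98 and -7.33 against -7.15 and -6.73 in the clone. It was above background on no untreated array, both N18TG2 RA arrays and 1 clone RA array, and its difference of 2.23 (95% confidence interval 0.83 to 3.63) had adjusted p = 0.0987, at least 2.14-fold.

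Within N18TG2 alone Rarb was called, where RA goes with slide row, at log2 3.75 ± 0.45 (SE) with adjusted p = 0.018 (limma), or at least 4.93-fold, and in the clone it was 0.71 ± 0.45 (SE) with adjusted p = 0.415. The test of that difference between lines gave adjusted p = 0.120. Cyp26a1, a close relative of Cyp26b1, was above background only in the clone, where it read -3.33 and -3.68 untreated and -2.03 and -1.88 with RA, and its difference over both lines was 1.06 with adjusted p = 0.124 (limma). Dhrs3, which reduces retinal to retinol, was above background on no untreated array and on 1 RA array of each line, with a difference of 2.06, at least 2.48-fold, and adjusted p = 0.139.

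The list of retinoid carriers, enzymes, receptors and cofactors had 29 of its 36 genes tested. Of these, 1 passed as higher (Cyp26b1) and 1 as lower (Stra6), and 10 were higher and 10 lower in both lines, with a median log2 difference of 0.06 beside 0.02 for all genes (-0.14 to 0.15 over the alternatives). The receptors Rara, Rarg, Rxra, Rxrb and Rxrg had differences of -0.09, -0.43, -0.84, -0.55 and -0.43, and none passed. Of 40 genes known from other systems to be induced by RA, 31 were tested, 2 passed as higher (Cyp26b1 and Hoxb4) and 1 as lower (Stra6). In both lines 17 of the 31 were higher and 7 lower, a median of 0.41, which ran from -0.02 to 0.52 over the alternatives.

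**Figure D3:**
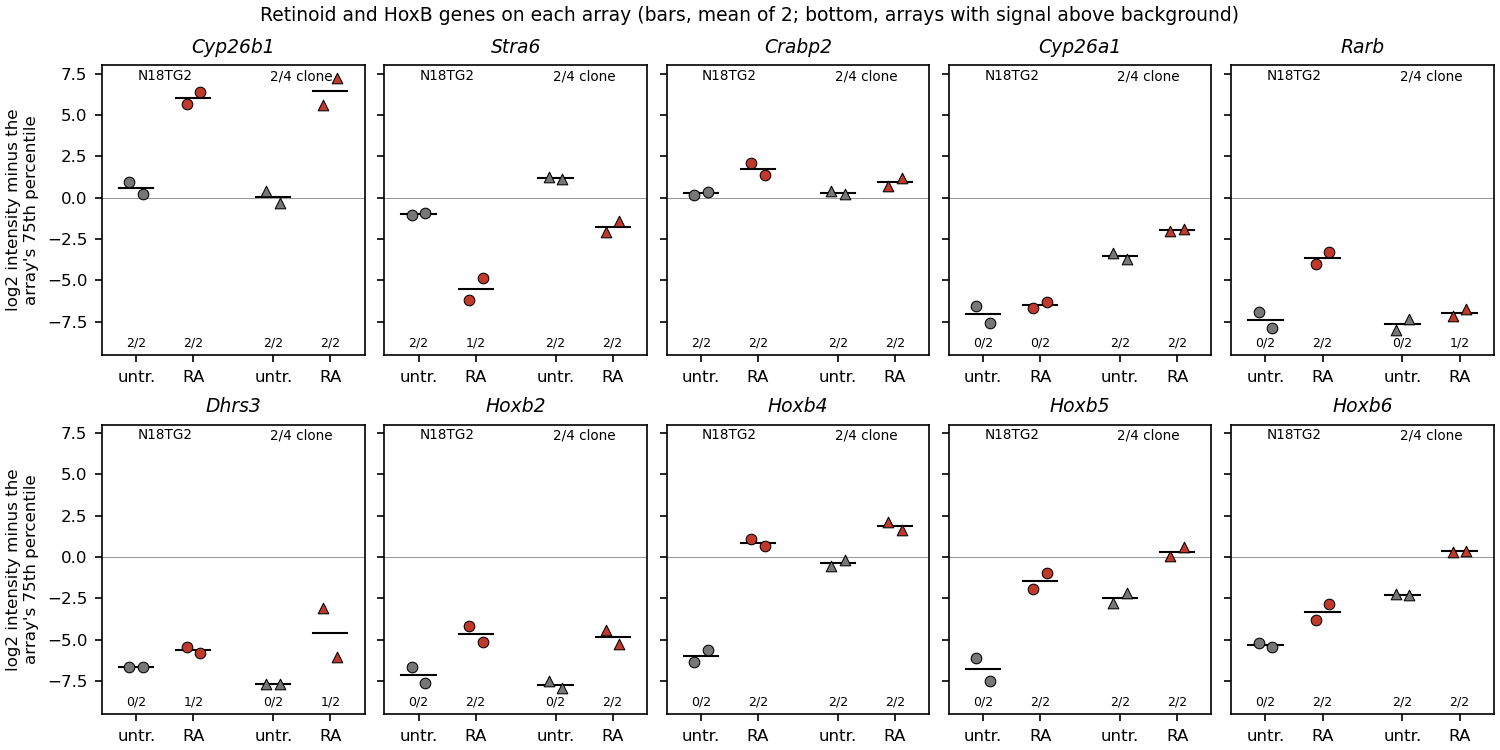
Level of 6 retinoid genes and 4 HoxB genes on each array (log2 intensity minus the 75th percentile of the array), with circles for N18TG2, triangles for the 2/4 clone, grey for untreated and red for RA, bars at the mean of 2 arrays and, along the bottom, the number of arrays above background. Cyp26b1 and the HoxB genes are higher and Stra6 lower with RA in both lines, while Cyp26a1 is above background only in the clone.

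Hox genes encode homeobox transcription factors that set position along the body axis, and their 3' members answer to RA in the embryo. Of 17 Hox genes tested, 4, or 23.5%, passed as higher, against 1.01% of all genes tested, and all 4 came from HoxB. Hoxb4 read -6.36 and -5.60 on the untreated and 1.08 and 0.64 on the RA arrays of N18TG2, and -0.54 and -0.21 against 2.14 and 1.62 in the clone. It was above background only with RA in N18TG2, whereas the untreated clone already had a clear signal that was higher with RA. The difference was 4.55 ± 0.84 (SE, n = 4 arrays each) with adjusted p = 0.0413 (limma). It was at least 80.7-fold in N18TG2 and 4.76-fold in the clone, and the difference between the lines was -4.59 ± 0.53 (SE) with adjusted p = 0.0384 (limma). That difference uses untreated N18TG2 signals that were not above background, so its size is not exact.

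Hoxb5 read -6.08 and -7.53 on the untreated and -1.97 and -0.97 on the RA arrays of N18TG2, and -2.81 and -2.19 against 0.05 and 0.57 in the clone. RA arrays were above untreated arrays in each line, from a dimmer start in N18TG2, and the difference was 4.07 ± 0.58 (SE, n = 4 arrays each) with adjusted p = 0.0196 (limma). Hoxb6 read -5.21 and -5.46 on the untreated and -3.80 and -2.81 on the RA arrays of N18TG2, and -2.23 and -2.32 against 0.32 and 0.35 in the clone. For both genes no untreated N18TG2 array was above background, which gives a rise there of at least 22.5-fold for Hoxb5 and 4.08-fold for Hoxb6. Again the clone was brighter before and after RA, and the difference was 2.32 ± 0.28 (SE, n = 4 arrays each) with adjusted p = 0.0128 (limma). Hoxb2 read -6.63 and -7.64 on the untreated and -4.17 and -5.15 on the RA arrays of N18TG2, and -7.52 and -7.93 against -4.42 and -5.25 in the clone. None of its untreated and all of its RA arrays were above background, so the change is given as at least 3.17-fold, with adjusted p = 0.0172 (limma), and the gene passed the filter through its RA arrays alone.

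In dim genes like these, the size depended on background handling. After normexp background correction, Hoxb4, Hoxb5, Hoxb6 and Hoxb2 differed by 2.91, 2.14, 1.28 and 0.13, and 2 Hox genes were called rather than 4. With no filter on dim probes, 0 of 39 Hox genes were called. Hoxb3, their neighbour in the cluster, had a difference of 0.94 with adjusted p = 0.229 (limma). Its other, dimmer probe differed by 3.57, and with the mean of a gene's probes 5 Hox genes were called. Of 39 Hox genes listed, 17 were tested, 2 of them through their RA arrays alone, and 12 of these were higher and 1 lower in both lines, a median of 0.84 (0.18 to 0.98 over the alternatives). Hoxc4, Hoxc5, Hoxc6 and Hoxc9 lay higher on every RA array of each line without passing, the nearest being Hoxc6 at 0.84 with adjusted p = 0.0716.

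Outside these pathways, 15 higher and 15 lower members were chosen as those with the largest difference among members that have a symbol, are above background on all 8 arrays and do not overlap in either line. Throughout, a gene counted as above background on an array where any of its probes was. After Cyp26b1, the next 2 by size were collagen genes. Col11a2, a chain of a fibrillar collagen of cartilage, read -2.87 and -3.29 on the untreated and 0.89 and 1.16 on the RA arrays of N18TG2, and -2.11 and -2.37 against 1.09 and 1.07 in the clone. The RA arrays of both lines reached a like level from a like low start. The difference was 3.71 ± 0.25 (SE, n = 4 arrays each), or 13.1-fold, with adjusted p = 0.00306 (limma), and it was called under all 19 alternatives. Col20a1, another collagen chain, differed by 3.13 with adjusted p = 0.0203, 19.0-fold in N18TG2 and 4.03-fold in the clone.

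Gdpd5, a membrane phosphodiesterase known for promoting motor neuron differentiation, read 0.06 and 0.06 on the untreated and 2.10 and 2.23 on the RA arrays of N18TG2, and 0.78 and 0.68 against 2.56 and 3.20 in the clone. RA arrays were about equally high above the untreated arrays in both lines, 4.30-fold in N18TG2 and 4.42-fold in the clone, with adjusted p = 0.0104 (limma). Efnb3, which encodes the ephrin-B3 ligand of Eph receptors in axon guidance, rose by 2.31 with adjusted p = 0.0371, 9.43-fold in N18TG2 and 2.59-fold in the clone. Adam8, a membrane protease, rose by 2.33 with adjusted p = 0.0271. The adhesion receptor Adgrf4 rose by 2.60, and the adaptor Dok3 by 2.36.

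The remaining higher genes described were Gm14207 at 2.94, Oplah at 2.57, Msantd1 at 2.38, Otud7b at 2.37, Tnnt3 at 2.25 and Oasl1 at 2.20. Oplah encodes 5-oxoprolinase of the glutathione cycle, Otud7b a deubiquitinase and Tnnt3 the troponin T of fast muscle. Adjusted p for the 14 higher genes described ran from 0.00306 (Col11a2) and 0.00306 (Cyp26b1) to 0.0371 (Efnb3, limma).

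Genes that fell most were led by Tgfbi, a secreted matrix protein induced by TGF-beta. It read 0.42 and 0.67 on the untreated and -5.03 and -4.05 on the RA arrays of N18TG2, and 5.03 and 5.16 against 2.27 and 2.17 in the clone. RA arrays of N18TG2 dropped close to background, and those of the clone stayed bright but well under its untreated arrays. The difference was -3.98 ± 0.46 (SE, n = 4 arrays each), 15.8-fold lower, with adjusted p = 0.0123 (limma), and adjusted p ran from 0.000693 to 0.0569 over its 19 alternatives. It was 33.9-fold in N18TG2 and 7.34-fold in the clone.

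Hs3st6 encodes a heparan sulfate 3-O-sulfotransferase, which modifies sugar chains of cell surface proteoglycans. It read 3.80 and 4.00 on the untreated and 1.01 and 0.30 on the RA arrays of N18TG2, and 2.98 and 3.03 against -0.01 and -0.46 in the clone. The drop was of like size in both lines, 9.46-fold in N18TG2 and 9.45-fold in the clone, with a difference of -3.24 ± 0.24 (SE, n = 4 arrays each) and adjusted p = 0.00306 (limma), called under all 19 alternatives. Hpse, heparanase, which cleaves the same chains, fell by 2.43 on the log2 scale with adjusted p = 0.0246 (limma), 2.87-fold in N18TG2 and 10.2-fold in the clone. Its other probe, the dimmer one, differed by -0.45, and no single probe of Hpse was above background on all 8 arrays.

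Pla2g2e, a secreted phospholipase A2, read 4.38 and 4.35 on the untreated and 2.43 and 2.37 on the RA arrays of N18TG2, and 1.53 and 2.10 against -2.79 and -3.73 in the clone. It was brightest in untreated N18TG2 and dimmest with RA in the clone, with a difference of -3.52 ± 0.60 (SE, n = 4 arrays each) and adjusted p = 0.0329 (limma). It was 3.89-fold in N18TG2 and 33.7-fold in the clone, and the difference between lines had adjusted p = 0.0849. Ptgr1, an enzyme of leukotriene and prostaglandin breakdown, differed by -2.50 with adjusted p = 0.0346 (limma). Sult2b1, a sterol sulfotransferase, differed by -2.83 with adjusted p = 0.00775 and was called under all 19 alternatives.

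Il6, the inflammatory cytokine interleukin-6, read 1.46 and 1.26 on the untreated and -0.16 and -0.55 on the RA arrays of N18TG2, and 0.99 and 1.02 against -2.25 and -2.47 in the clone. RA arrays were below untreated arrays in both lines, by 3.26-fold in N18TG2 and 10.3-fold in the clone, with a difference of -2.54 ± 0.35 (SE, n = 4 arrays each) and adjusted p = 0.0191 (limma). Oas1a, an interferon-induced enzyme that senses double-stranded RNA, differed by -3.19 with adjusted p = 0.0101, while its relative Oasl1 was among the higher members. Of 26 tested genes of MHC class I and the interferon response these 2 passed, and the list's median was 0.00.

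Rasgrp2, an exchange factor that activates Rap GTPases, read 0.76 and 0.62 on the untreated and -1.45 and -2.15 on the RA arrays of N18TG2, and 3.92 and 4.20 against 1.53 and 1.30 in the clone. It fell in parallel in both lines from different starts, 5.62-fold in N18TG2 and 6.27-fold in the clone, with adjusted p = 0.00775 (limma). Septin4, a cytoskeletal GTPase, differed by -3.43 with adjusted p = 0.0105, 7.49-fold in N18TG2 and 15.5-fold in the clone. The others of the 15 were Cox6a2, a muscle-type subunit of cytochrome c oxidase, at -2.84, the RNA export factor Nxf7 at -2.84, the histone H4 gene H4c17 at -2.64, Upp1, uridine phosphorylase, at -2.63, and the PQ-loop membrane protein gene Pqlc3 at -2.49. Cox6a2, Nxf7 and Upp1 were lower by 19.0-fold, 15.7-fold and 14.6-fold in the clone and by 2.71-fold, 3.27-fold and 2.62-fold in N18TG2, and none of these 3 differences between lines passed its own test (adjusted p = 0.0632, 0.298 and 0.136, limma).

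**Figure D4:**
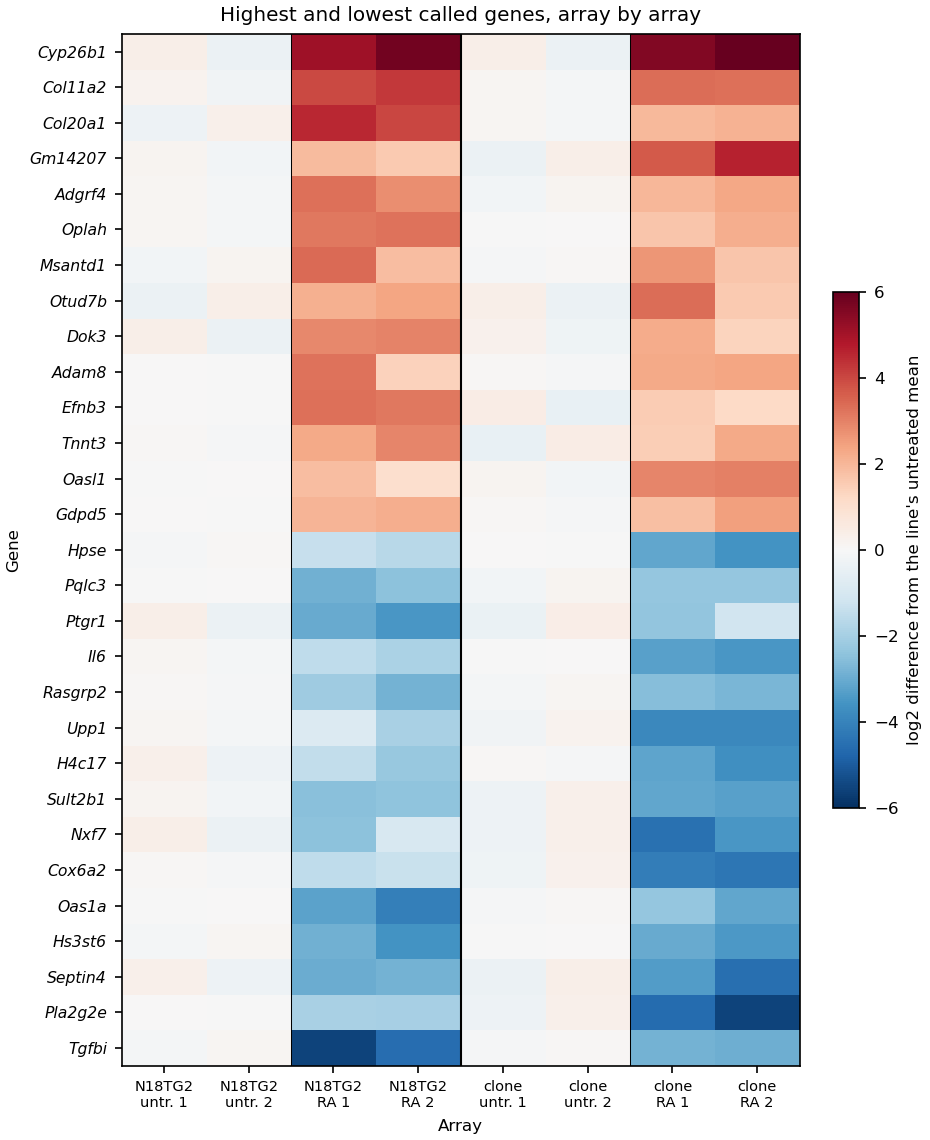
Difference of each array from the mean of the untreated arrays of its line (colour, log2) for 14 of the 15 highest and the 15 lowest called genes with a symbol and signal on all 8 arrays (rows), by array (columns). Cyp26b1 and Col11a2 are high on the RA arrays of both lines; Tgfbi is darkest in N18TG2 and Pla2g2e, Cox6a2 and Upp1 in the clone, differences between lines that did not pass their own test.

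Some members were measured on only 1 side, so only a bound can be given. The bound sets the mean of the bright arrays against the lowest signal that counted as above background on each dim array, or the gene's own signal where that was higher. Genes above background on no untreated array passed the filter on dim probes through their RA arrays alone. Their being higher follows in part from that filter, so their p-values are only a description. Tmed6, a protein of the early secretory pathway, was above background on no untreated and all 4 RA arrays and was at least 11.8-fold higher, with adjusted p = 0.0123 (limma). Transcription factor genes of the ETS family, Elf5 at 8.09-fold or more and Spib at 6.96-fold or more, were above background on no untreated array and on 3 and 4 RA arrays. Isx, a homeobox factor that is induced by RA in the gut and is known to repress Bco1 there, was at least 7.35-fold higher, with adjusted p = 0.0260. It read -6.65 and -7.66 on the untreated and -1.89 and -2.09 on the RA arrays of N18TG2, and -7.69 and -7.94 against -6.20 and -3.96 in the clone, and was above background on 3 RA arrays.

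Bco1 encodes the enzyme that cleaves beta-carotene into retinal. It was named for its promoter above, and its difference was -1.62 ± 0.30 (SE) with adjusted p = 0.0413 (limma), -1.04 in N18TG2 and -2.20 in the clone. Scarb1, a lipid receptor that Isx is also known to repress in the gut, had a difference of -0.24 with adjusted p = 0.593 (limma). Any part of Isx in the values of Bco1 and Scarb1 was not tested. Of transcripts without a symbol, XM_205565 was at least 7.16-fold and ENSMUST00000031618 at least 5.52-fold higher. In the other direction, Cys1, which encodes a protein of the primary cilium, was above background on all untreated and no RA arrays and at least 4.87-fold lower with adjusted p = 0.0195. Ngef, a guanine nucleotide exchange factor of neurons that acts downstream of Eph receptors, was at least 4.15-fold lower with adjusted p = 0.0124 (limma).

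Gene lists of wider pathways were described by how many members passed and how many lay the same way in both lines. Over all genes tested, 1.01% passed as higher and 0.91% as lower. In both lines 31.1% were higher and 28.6% lower, with a median of 0.02. Of 34 extracellular matrix genes tested, 4, or 11.8%, passed, all lower, and 18 were lower and 2 higher in both lines, a median of -0.67. After Tgfbi these were Fbln2, a fibulin of elastic fibres, which read 4.61 and 3.58 on the untreated and 2.56 and 2.50 on the RA arrays of N18TG2, and 3.92 and 3.63 against 2.12 and 1.78 in the clone, Col1a1, the main chain of type I collagen, at -1.34, and Lama5, a laminin chain of basement membranes, at -1.05. Fbln2 was bright everywhere and lower on the RA arrays of both lines, by 2.96-fold in N18TG2 and 3.54-fold in the clone, with adjusted p = 0.0271 (limma). Col11a2 and Col20a1, which rose, were not on this list.

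Integrin and actomyosin genes followed a like pattern, with 4 of 33, or 12.1%, passing as lower and 18 lower and 4 higher in both lines, a median of -0.44. Itgb3, the beta3 subunit of receptors for vitronectin and fibrinogen, read -2.16 and -2.55 on the untreated and -5.28 and -6.25 on the RA arrays of N18TG2, and 1.19 and 1.18 against -0.69 and -0.96 in the clone. It was above background on 1 of 2 RA arrays of N18TG2 and on both of the clone, dim in N18TG2 and bright in the untreated clone, and was lower with RA in both, 10.6-fold in N18TG2 and 4.03-fold in the clone, with adjusted p = 0.0172 (limma). The other, dimmer probe of Itgb3 differed by -0.54. Anxa2, a calcium-dependent membrane-binding protein, read 3.67 and 3.18 on the untreated and 0.85 and 0.07 on the RA arrays of N18TG2, and 5.96 and 6.11 against 4.37 and 4.30 in the clone. It fell, 7.80-fold in N18TG2 and 3.24-fold in the clone, with adjusted p = 0.0194. Itgb4, the partner of the alpha6 integrin in hemidesmosomes, differed by -1.47, and Itga7, a laminin receptor subunit, by -1.26.

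Vim, which encodes the intermediate filament vimentin, read 6.07 and 5.98 on the untreated and 3.84 and 3.87 on the RA arrays of N18TG2, and 5.36 and 5.78 against 4.62 and 4.59 in the clone. It was among the brightest genes named, and fell, 4.50-fold in N18TG2 and 1.95-fold in the clone, with a difference of -1.57 ± 0.29 (SE, n = 4 arrays each) and adjusted p = 0.0413 (limma). In the list of mesenchymal neuroblast genes, Vim and Wwtr1, a Hippo pathway coactivator at -1.81, passed as lower, with 18 tested and a median of -0.08. Plaur, the urokinase receptor, and Klf4, a zinc finger factor, passed as lower among 41 serum-induced and early response genes, at -1.60 and -1.33. That list had a median of -0.01, with 15 lower and 9 higher in both lines. At an unadjusted p under 0.05 (limma) lay 12 of the 41, or 29.3%, 11 of them lower, against 19.1% of all genes tested. The list bears on the change of serum noted above, whose part in the result was not tested.

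Signalling lists held a few members each, where 1.92% of all genes tested passed in either direction. Dll4, a Notch ligand, read -5.50 and -4.88 on the untreated and -3.34 and -2.38 on the RA arrays of N18TG2, and -5.11 and -5.03 against -1.96 and -0.91 in the clone. RA arrays were higher in both lines from a dim start, with a difference of 2.98 ± 0.40 (SE, n = 4 arrays each) and adjusted p = 0.0180 (limma). Mfng, a fringe glycosyltransferase that modifies Notch receptors, went the other way, at -1.59 with adjusted p = 0.0182, 3.33-fold in N18TG2 and 2.71-fold in the clone. These were the only 2 of 26 Notch pathway genes to pass. Of 28 genes of TGF-beta and BMP signalling, Inha, the alpha subunit of inhibin, rose by 1.86 with adjusted p = 0.0136, and Ltbp2, a latent TGF-beta binding protein family member, by 1.20 with adjusted p = 0.0456. Of 31 Wnt pathway genes, the ligand Wnt6 and the enhancer of Wnt signalling Rspo1 passed as lower, at -1.46 and -1.68.

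Neuronal lists held few members, where 1.92% of all genes tested passed. None of 27 genes of the neuronal cytoskeleton and growth cone passed (limma), against 7, or 25.9%, at an unadjusted p under 0.05 (19.1% of all genes tested), with 13 lower and 4 higher in both lines and a median of -0.21. Of 33 synaptic vesicle genes and 11 cholinergic genes, Slc18a3, the vesicular acetylcholine transporter, was the only one to pass, at -1.17 with adjusted p = 0.0399 (limma). Dbh, which turns dopamine into noradrenaline, was the only one of 25 adrenergic genes, at -2.19 with adjusted p = 0.0457, 8.38-fold in N18TG2 and 2.48-fold in the clone. Chat, the gene that names the clone, had a difference of 0.97 with adjusted p = 0.628, and its level did not separate the untreated clone (-3.73 and -2.71) from untreated N18TG2 (-2.63 and -4.57). Whether this probe reads the copy introduced into the clone is not given in the sources used here.

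Lmna, the lamin A/C gene in the title of the series, read 3.80 and 3.68 on the untreated and 3.36 and 3.42 on the RA arrays of N18TG2, and 4.86 and 5.17 against 3.53 and 3.50 in the clone. RA arrays were lower in both lines, little in N18TG2 and more in the clone, 1.27-fold in N18TG2 and 2.82-fold in the clone, and the difference of -0.92 ± 0.28 (SE, n = 4 arrays each) had adjusted p = 0.123 (limma). In the list of lamins and nuclear envelope proteins, 1 of 20 passed, Syne3, which encodes nesprin-3, a link from the outer nuclear membrane to intermediate filaments. It read -2.03 and -1.98 on the untreated and -6.29 and -5.85 on the RA arrays of N18TG2, and -1.15 and -0.95 against -3.43 and -3.44 in the clone. It was above background on 1 of 2 RA arrays of N18TG2 and on both of the clone, and fell, 16.7-fold in N18TG2 and 5.21-fold in the clone, with adjusted p = 0.0117 (limma).

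Lists of stress, metabolism and the cell cycle held few calls. Their medians ran from -1.03 for the ATF4 and CHOP stress response to 0.08 for cholesterol genes. Of 29 genes of the ATF4 and CHOP stress response, 19 were lower and 1 higher in both lines, and 2 passed, Aldh1l2, a mitochondrial folate enzyme, at -1.98 and Stc2, a secreted glycoprotein, at -1.78. The median was -0.38 in N18TG2 and -1.46 in the clone. At an unadjusted p under 0.05 (limma) lay 19 of the 29, or 65.5%, 18 of them lower, against 19.1% of all genes tested. Its calls varied with the setting. With signal required on all arrays, with trended and robust variance and with group means, 10, 11 and 13 passed as lower. With no filter on dim probes 0 did. Of 35 hypoxia and glycolysis genes, 23 were lower and 3 higher in both lines, with a median of -0.54 in N18TG2 and -0.48 in the clone, and none passed (limma), against 17, or 48.6%, at an unadjusted p under 0.05, where 19.1% of all genes tested lay. Mitosis genes had a median of -0.09 in N18TG2 and -1.36 in the clone, with 17 of 32 lower and none higher in both lines and none passing (limma), against 13, or 40.6%, at an unadjusted p under 0.05. DNA replication genes had a median of 0.41 in N18TG2 and -0.50 in the clone, with 9 of 35 lower and 1 higher in both lines, and none passed (limma), against 5, or 14.3%, at an unadjusted p under 0.05. Of 36 cholesterol genes 13 were higher and 13 lower in both lines, with a median of 0.08, and none passed (limma), against 7, or 19.4%, at an unadjusted p under 0.05.

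Of 21 genes of endoplasmic reticulum chaperones, Derl3, which takes part in the disposal of misfolded proteins, was the only one to pass. It read -6.58 and -5.65 on the untreated and -3.80 and -4.21 on the RA arrays of N18TG2, and -6.44 and -5.56 against -2.61 and -4.05 in the clone. It was above background on no untreated and all 4 RA arrays, so the change is at least 4.15-fold, with adjusted p = 0.0313 (limma), and the list's median was 0.03. Derl3 passed the filter on dim probes through its RA arrays alone, so its p-value is only a description.

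All 42 cytosolic ribosomal protein genes tested were lower in both lines, at a median of -0.37, but none passed (limma), against 3, or 7.14%, at an unadjusted p under 0.05, where 19.1% of all genes tested lay, and after quantile normalization 13 were lower and 9 higher in both lines with a median of -0.02. Without RA array 2 of N18TG2, 20 were lower in both. The count of this family in both lines thus moved with the scaling and with 1 array. Histone genes of the clusters were looked at after H4c17 was seen. Of 47 tested, 31 were lower and 8 higher in both lines, with a median of -0.93. Besides H4c17, H3c1, H3c8 and H1f5 passed as lower, at -2.41, -2.13 and -1.82, and H2ac18 as higher at 1.34. Genes of this family are near-identical, so signals may be shared between them.

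**Figure D5:**
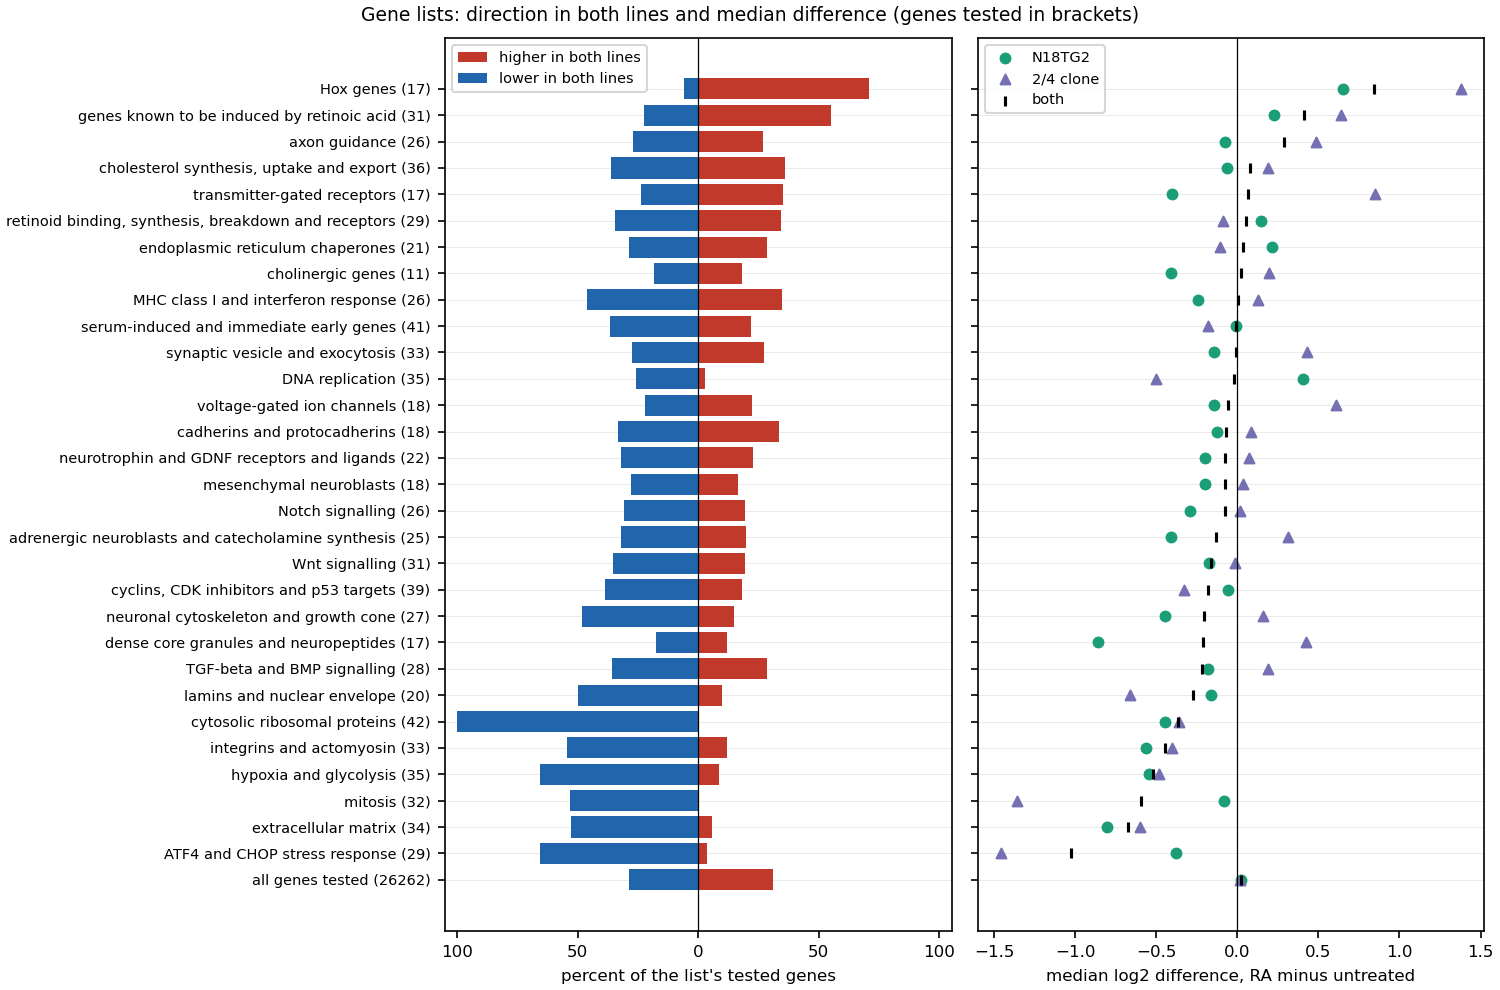
Left, percent of the tested genes of each list that were higher (red) or lower (blue) with RA in both lines; right, median log2 difference in N18TG2 (circles), the 2/4 clone (triangles) and both (bars), with all genes tested at the bottom. Hox genes lie highest, extracellular matrix, hypoxia and glycolysis and integrin genes lie lower to a like extent in both lines, and mitosis genes lie lower mainly in the clone.

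Markers of other cell types were followed because the labels name another tissue. Of the lists for hippocampal neurons, for astrocytes with oligodendrocytes, for Schwann cells, for blood vessels with blood and microglia, and for fibroblasts, 9, 11, 7, 12 and 7 genes were tested. Only Pmp22, a myelin protein also made by many other cells, and Col1a1 passed, both lower. Pmp22 read 2.72 and 2.66 on the untreated and 0.16 and 0.27 on the RA arrays of N18TG2, and 3.36 and 3.67 against 1.20 and 1.26 in the clone. It fell, 5.54-fold in N18TG2 and 4.88-fold in the clone, with adjusted p = 0.00563 (limma), and its other, dimmer probe differed by -1.13. The summed level of the 11 Schwann cell markers, on the linear scale relative to the 75th percentile, ran from 25.4 to 71.7 on untreated and 17.4 to 39.4 on RA arrays, and that of the 11 fibroblast markers from 1.826 to 3.533 and 1.501 to 2.007. The sums for hippocampal neurons, 7.17 to 16.6 and 6.84 to 9.91, and for astrocytes with oligodendrocytes, 9.90 to 14.8 and 4.10 to 11.9, overlapped between untreated and RA arrays. That for blood vessels with blood and microglia reached higher with RA, at 21.1 to 26.25 untreated and 18 to 41.8 with RA. The part of these markers in the result was not tested. Among fibroblast markers, Lum, Thy1, Postn and Fap were above background on no array, and among Schwann cell markers Foxd3 and Fabp7.

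Of the 63 called genes named by rule, all kept their direction under every alternative that could be fitted. Cyp26b1, Col11a2, Hs3st6, Pqlc3, Rasgrp2 and Sult2b1 stayed called under all 19. With no filter on dim probes 11 of the 63 stayed called, after quantile normalization 29 and after normexp correction 33. Leaving out single arrays ended many calls: 6 and 7 of the 63 stayed called without untreated N18TG2 array 1 and 2, 13 and 8 without untreated clone array 1 and 2, 24 and 38 without RA array 1 and 2 of N18TG2, and 49 and 43 without RA array 1 and 2 of the clone.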

How the data were processed

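Total RNA was hybridised to one-colour (Cy3) Agilent mouse arrays. Per the file headers, the deposited intensity values came from Feature Extraction 10.7.3.1, which subtracted background and removed spatial trends one array at a time. Values of the deposited log2 series table were these same values on a log2 scale, each array shifted by its own constant. Here control and outlier spots were left out, log2 intensity was scaled by subtracting the 75th percentile of each array, spots of a probe were averaged, and a probe was kept if 2 or more of the 8 arrays called it well above background, with the brightest probe per gene. Names came from RefSeq accessions. limma 3.58.1 (R 4.3.3) fitted line plus treatment over 26262 genes. The 52 genes with a missing array were fitted on 7. A second fit of 4 group means gave the values within each line and their difference. P-values were two-sided and adjusted by Benjamini-Hochberg, with a threshold of 0.05. The 8 arrays limit the precision. All lay on 1 slide with 1 scan. Each treatment held both slide rows and both sides. Within a line, rows go with RA, so rows cannot be told apart from RA in values of 1 line or in the difference between the lines' responses. Named genes were called members of the retinoid and Hox lists, the 15 largest differences each way, the 6 largest bounds each way, up to 4 genes of each other list with at least 2 calls, Lmna, Chat and 6 retinoid genes. Single calls in other lists are named as well, and some genes that the rule names are not reported here. The genes, lists and tests were chosen with earlier results of these data known. Alternatives covered background correction, scaling, filters, probe choice, variance model, slide position and each array left out. The code of the test was also run on simulated data with known differences, and its outcome is not reported here.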

Additional observations from a re-analysis of the deposited data

Results flagged for a closer look

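Hoxb4 rose with RA in both lines, but by different amounts. The difference in log2 change, clone minus N18TG2, was -4.59 ± 0.53 (SE) with adjusted p = 0.0384 (limma interaction term), and it was higher on all 4 RA arrays than on the untreated arrays of the same line. Hoxb4 rose by 6.84 as measured in N18TG2, where the bound is 6.33, and by 2.25 in the clone. The -4.59 uses the measured value, so its size is not exact. Neither untreated N18TG2 array was above background, so the change there is at least 80.7-fold, and the row of the slide goes with this difference and cannot be told apart from it.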

How the results depend on the processing

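All 63 called genes named by rule kept their direction under each alternative that could be fitted. As reported 504 genes were called, all with the same sign in both lines, and the counts for both were 174 after normexp background correction, 229 after quantile normalization, 28 with no filter on dim probes, 314 with the slide side as a block, 1211 with a trended, robust variance and 1177 where probes had to exceed background on every array. With group means, which is the slide row as a block, 1530 were called and 1461 had the same sign. Leaving out 1 array gave 12 to 349 calls. With each line fitted on its own by limma, 218 genes were called in N18TG2, 0 in the clone (5362 at an unadjusted p under 0.05) and 0 in both, against 933 of shared sign at an unadjusted p under 0.05 in both. The cause of these shifts was not tested. The series table, probe means, a floor on dim signals, outlier spots kept, a 2-fold minimum and an interaction p over 0.05 gave 411 to 590. Normexp moved the median of all genes by -0.13. Named genes near background are limited by signal over background. No paired analysis was possible because the labels give no replicate numbers that could pair samples, and the block by slide side above is by position only.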
